A study of Mus musculus with 18 samples.

Results

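The comparison of testes from mice carrying an inducible histone H3 lysine-9-to-methionine mutant (K9M) with testes from wild-type (WT) mice rests on 4 of the 18 libraries of the series, chosen by their tissue and genotype labels. They are 2 K9M libraries, from mice 1516 and 1519, and 2 WT libraries, from mice WT.1476 and WT.1477. Each library held polyA RNA of dissociated testes cells from 1 mouse of a C57B6/129 hybrid strain. Mice were 6 to 8 weeks old and drank doxycycline at 2 mg/ml to switch on the mutant histone, and the labels give this text for WT mice too. The labels do not say which promoter drives the mutant histone or in which testis cells it is made. The same 4 mice also gave intestine libraries, and 4 other mice gave K9M and WT libraries of blood stem and progenitor cells from bone marrow. The 2 remaining testes libraries carry an H3 lysine-36-to-methionine mutant (K36M) and are used here for levels and 1 alternative fit.

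Methylation of lysine 9 of histone H3 marks silent chromatin, and a methionine at this position acts as a dominant inhibitor of the enzymes that place the mark. In the mouse, H3K9 methylation silences retroelements, many of them through KRAB zinc finger proteins, which bind DNA and recruit TRIM28 and the methyltransferase SETDB1. In germ cells the mark is also placed and removed as spermatogonia enter meiosis, and loss of its enzymes is known to arrest mouse spermatogenesis. The question put to these libraries was which genes of the whole testis differed between K9M and WT.

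Reads counted in genes numbered 20724623 and 20993726 in the K9M libraries, against 16122101 and 20577418 in the WT libraries. Reads that fell in no annotated feature made up 23.8% of entries in both K9M libraries, against 25.9% and 26.0% in the WT libraries, and the part of this difference in any result was not tested. The cells matched their label: spermatid genes such as Prm2, a protamine that packs sperm DNA, averaged 2801 CPM (counts scaled to equal library size) in K9M and 2508 CPM in WT testes. The mutant histone has no entry of its own among the counted genes, so the genotype labels could not be checked on it. The endogenous H3.3 genes differed little, with H3f3b at 381 and 402 CPM in K9M against 381 and 395 CPM in WT, and H3f3a at 58.5 and 57.8 CPM in K9M against 60.1 and 59.6 CPM in WT.

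Few genes differed between K9M and WT testes. Of 37620 gene IDs, 7994 had no count in the 4 libraries, 10855 did not pass the filter on low counts, and 18771 were tested. At an adjusted p under 0.05 in edgeR's quasi-likelihood test, 213 genes were called (1.13%), 96 higher (0.511%) and 117 lower (0.623%) in K9M. At least 2-fold changes made up 30 of the rises and 43 of the falls, and 71 calls had a log2 fold change under 0.5 in size. The median log2 fold change over all genes tested was 0.0034. Without adjustment, a p under 0.05 was reached by 11.3% of genes, with 5.64% higher and 5.61% lower. Each library came from its own mouse.

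**Figure D1:**
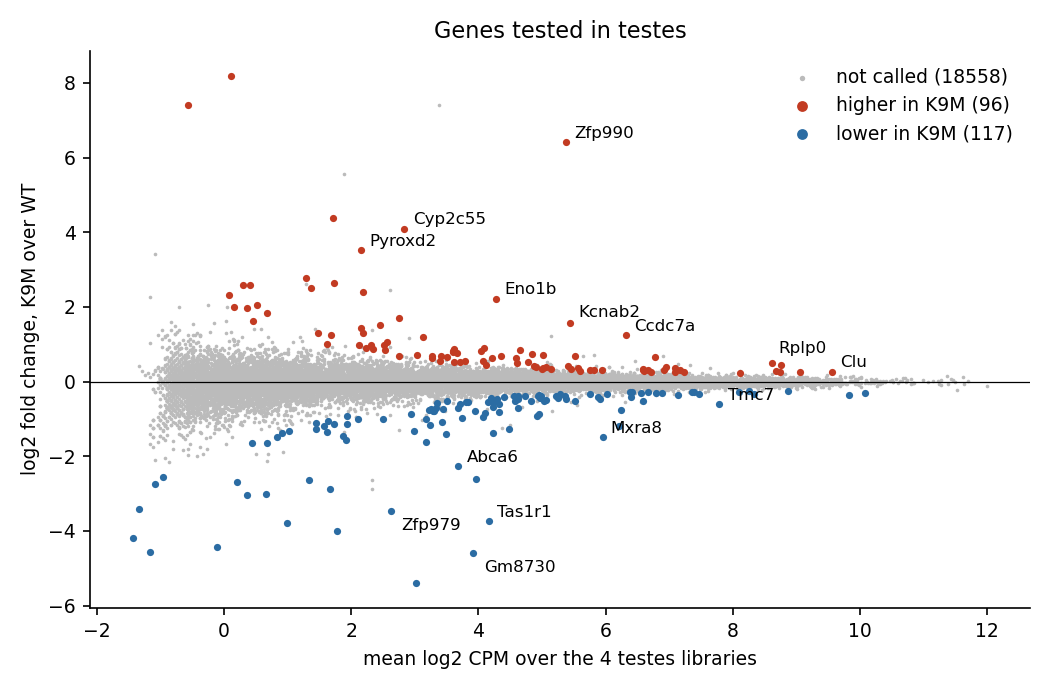
Log2 fold change of K9M over WT testes (vertical) against the mean log2 CPM of the 4 libraries (horizontal), with 1 point for each of the 18771 genes tested. The 96 genes called higher are red and the 117 called lower blue, and Zfp990 stands highest among genes whose log2 CPM averaged 5 or more, at a log2 fold change of 6.42.

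The replicate spread was small in these 4 libraries, with a biological coefficient of variation of 5.76%. Leaving out K9M mouse 1519 gave 361 calls, of which 150 were among the 213, and leaving out K9M mouse 1516 gave 152 rises. When the 2 K36M testes libraries, which differ more from each other, entered the fit to share its estimate of spread, 13 genes were called, 5 higher and 8 lower, and 12 of these were among the 213. In that wider fit 8 of the 39 called genes named here kept their call: Zfp990, Kcnab2, Ccdc7a, Tas1r1, Zfp979, Zfp980, Abca6 and Znf41-ps.

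The called genes were unevenly spread over the chromosomes. Chromosome 4 held 56 calls among 1250 genes tested (4.48%), 24 higher and 32 lower. Chromosome 5 followed with 30 of 1098 (2.73%), chromosome 19 with 12 of 570 (2.11%) and chromosome 7 with 28 of 1333 (2.1%). On these chromosomes rises and falls were mixed, and the median log2 fold change of chromosome 4 was 0.0027. The X chromosome had 1 call among 753 genes and a median of 0.038, and the Y chromosome had none among 9. Of 350 windows of 50 consecutive tested genes, 255 held no call and 7 held 5 or more. Leaving out 1 of the 4 libraries gave 42 to 61 calls on chromosome 4, and the fit with the K36M libraries gave 6.

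**Figure D2:**
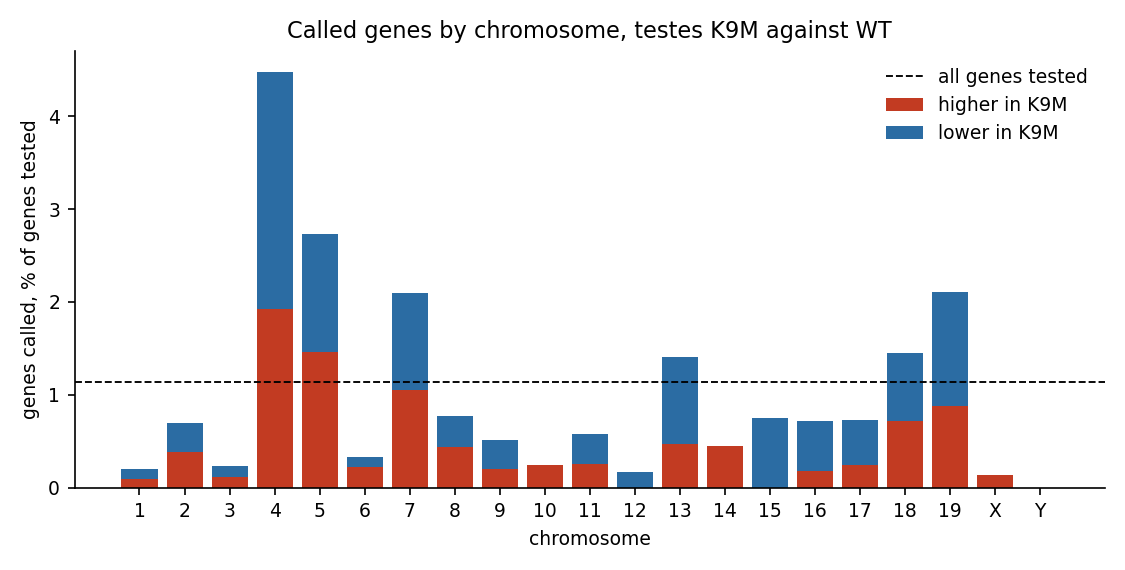
Genes called in K9M against WT testes as a percentage of the genes tested on each chromosome, with rises in red and falls in blue stacked from 0. The dashed line marks 1.13% for all genes tested, and chromosomes 4, 5, 7 and 19 stand above 2%.

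The end of chromosome 4 held most of that chromosome's calls. The last 200 of its 1250 tested genes, from Pramef8 to Plekhn1 in annotation order, held 47 calls (23.5%), 21 higher and 26 lower, against 9 of the 1050 genes before them (0.857%). The first 50 of these 200, from Pramef8 to Fv1, held 20 calls (40%), 11 higher and 9 lower. Between 15 and 18 of the window's genes were called when any 1 of the 4 libraries was left out, and 4 were called in the fit with the K36M libraries. All 4 mice carry the same strain label, and which parental haplotype each had at these genes was not tested.

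**Figure D3:**
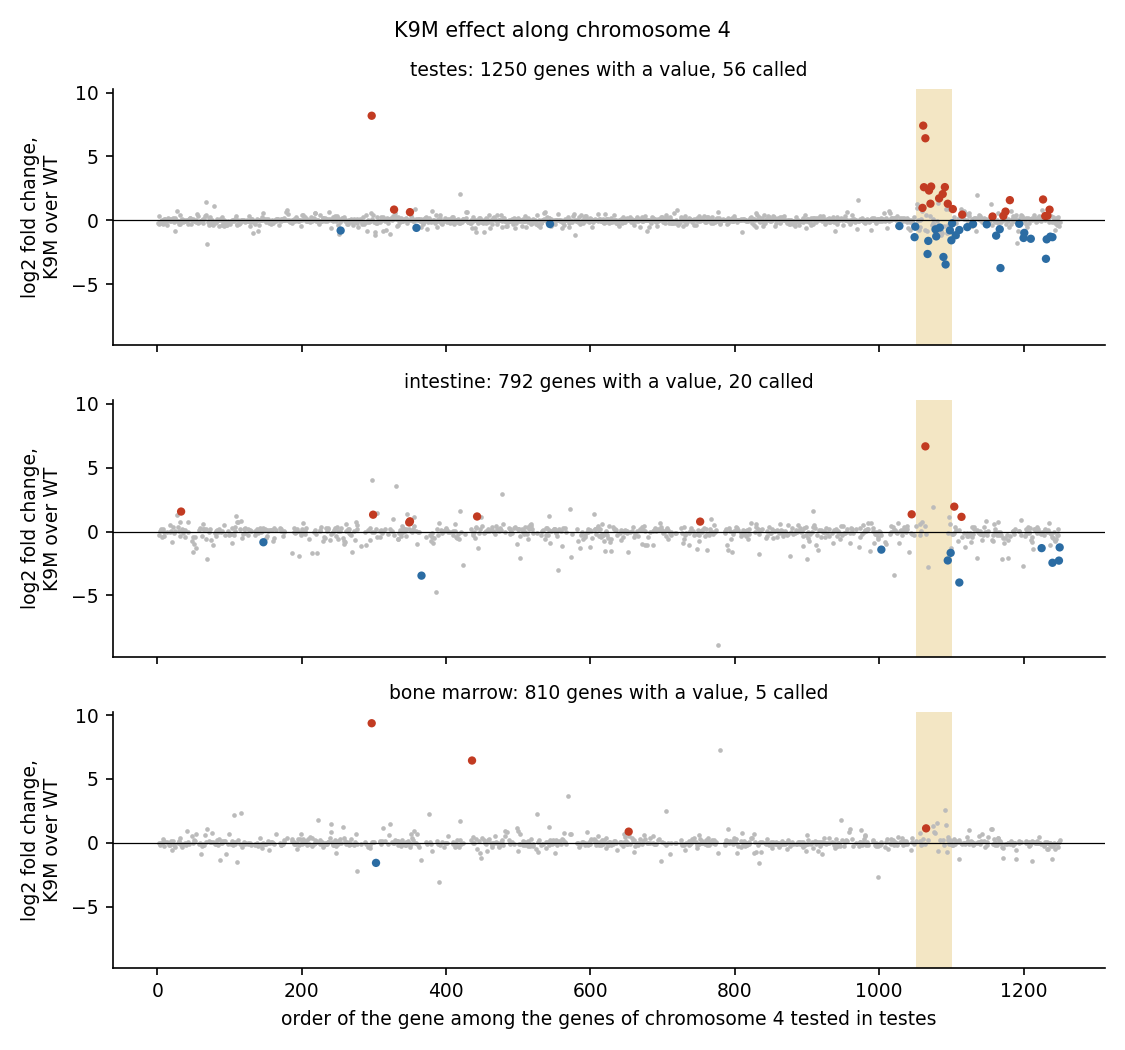
Log2 fold change of K9M over WT in testes, intestine and bone marrow (vertical, 1 panel each) by the order of the 1250 genes of chromosome 4 tested in testes (horizontal), with called genes in red (higher) or blue (lower) and the rest in grey. The shaded band marks the 50 genes from Pramef8 to Fv1, which hold 20 calls in testes. Of these genes, 16 were tested in intestine, with 3 calls, and 26 in bone marrow, with 1 call.

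The window from Pramef8 to Fv1 is a cluster of zinc finger genes, a class best known in the mouse for retroelement silencing. It held 18 tested genes with a Zfp or Znf symbol, of which 13 were called, 6 higher and 7 lower. Many share sequence with another annotated gene, in the window or elsewhere. Of the 20 called genes in the window, 15 (75%) shared 10% or more of their 50-base transcript stretches, against 10.9% of all genes tested. The median share over these 20 was 27.9%. The shares do not say which gene holds the matching stretch. Reads with no unique alignment were counted in a row that names no gene and were left out. Reads from shared stretches may therefore be missing, so the values of these genes are uncertain. Of the 13 called genes with an entry in RefSeq's promoter table, 9 had a promoter identical at 70% or more of aligned columns to that of another of them. These made 18 pairs, 11 of them called in opposite directions, and the other 4 genes had no such partner. The closest pairs below are shown because each joins a gene that rose in K9M testes with one that fell.

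Zfp600 rose (log2 fold change 1.30) and Zfp979 fell (-3.46), and 241 bases were identical over 256 aligned columns of the 250 bases before each start. The antisense genes 4933438K21Rik, which rose (1.71), and 1700095A21Rik, which fell (-1.26), had 246 identical bases over 250 columns. The sequences are RefSeq's, from GRCm38.p6, at chr4:146156577-146156826 (plus strand), chr4:147642509-147642758 (minus), chr4:147068437-147068686 (minus) and chr4:146546874-146547123 (minus). They run 5′ to 3′ and capitals mark bases that differ from the partner or lie against a gap in it.
Zfp600: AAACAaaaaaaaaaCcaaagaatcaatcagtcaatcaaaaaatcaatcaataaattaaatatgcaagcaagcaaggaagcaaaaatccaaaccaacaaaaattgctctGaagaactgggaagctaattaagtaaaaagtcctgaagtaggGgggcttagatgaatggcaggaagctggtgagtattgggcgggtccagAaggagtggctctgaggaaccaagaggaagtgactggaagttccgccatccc
Zfp979: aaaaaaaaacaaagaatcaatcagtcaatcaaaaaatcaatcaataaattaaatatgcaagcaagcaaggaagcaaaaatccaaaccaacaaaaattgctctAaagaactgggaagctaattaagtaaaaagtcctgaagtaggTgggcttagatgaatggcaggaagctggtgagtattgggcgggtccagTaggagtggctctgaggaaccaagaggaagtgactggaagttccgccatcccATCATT
4933438K21Rik: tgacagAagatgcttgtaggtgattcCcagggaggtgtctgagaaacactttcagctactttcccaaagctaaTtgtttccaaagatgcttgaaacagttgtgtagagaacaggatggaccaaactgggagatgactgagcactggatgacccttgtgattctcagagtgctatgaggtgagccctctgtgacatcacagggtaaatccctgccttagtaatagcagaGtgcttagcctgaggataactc
1700095A21Rik: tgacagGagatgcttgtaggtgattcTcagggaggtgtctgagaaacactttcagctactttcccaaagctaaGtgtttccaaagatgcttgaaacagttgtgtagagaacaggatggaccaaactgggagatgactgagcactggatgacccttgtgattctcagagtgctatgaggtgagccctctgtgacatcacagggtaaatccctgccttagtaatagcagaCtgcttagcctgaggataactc

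Zfp985 rose and Zfp982 fell with promoters identical at 217 of 265 aligned columns. Zfp980 and Zfp979, which both fell, matched at 227 of 255 columns. These matches describe the reference genome, not the genomes of the mice.

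Zfp990, a zinc finger gene, had the largest fold change of all genes whose log2 CPM averaged 5 or more. It had 77.0 and 83.1 CPM in K9M testes, against 1.06 and 0.826 CPM in WT testes. The groups were far apart, with a log2 fold change of 6.42 ± 0.13 (SE) and an adjusted p of 9.8e-15. The 2 K36M testes libraries, scaled over all 6 testes libraries, had 0.180 and 0.858 CPM. Its transcript shares 29.1% of its 50-base stretches with other genes.

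Other zinc finger genes of the cluster were called higher at low levels. Zfp986 averaged 1.54 ± 0.312 CPM in K9M and 0.302 ± 0.0142 CPM in WT (SD, n = 2 each), Zfp985 averaged 1.85 ± 0.0148 CPM in K9M and 0.295 ± 0.0643 CPM in WT, and Zfp978 averaged 2.07 ± 0.393 CPM in K9M and 0.499 ± 0.0873 CPM in WT. Zfp984 had 5.62 and 6.68 CPM in K9M, against 2.43 and 2.58 CPM in WT (log2 1.29 ± 0.20, adjusted p = 0.0021). Zfp600 had 3.52 and 3.91 CPM in K9M, against 1.68 and 1.36 CPM in WT (adjusted p = 0.013), and lost its call without WT.1477 (adjusted p = 0.16) or K9M mouse 1519 (adjusted p = 0.053). For each of these genes both K9M libraries lay above both WT libraries, as for 21.2% of all genes tested. For Zfp984 and Zfp600 this was a condition for naming them.

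Other genes of the cluster fell. Zfp979 had 0.733 and 1.36 CPM in K9M, against 12.3 and 11.0 CPM in WT (log2 -3.46 ± 0.23, adjusted p = 1.0e-07). Zfp982 had 0.488 and 1.04 CPM in K9M, against 5.67 and 5.64 CPM in WT (log2 -2.87 ± 0.28). Zfp980 had 0.635 and 0.753 CPM in K9M, against 4.74 and 4.03 CPM in WT (log2 -2.64 ± 0.28). These genes fell to a low level without reaching 0 counts. Smaller falls were found for the pseudogene Znf41-ps (-1.62 ± 0.14), Zfp933 (-0.79 ± 0.11), Zfp981 (-0.71 ± 0.09) and Zfp991 (-0.57 ± 0.13).

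Genes of other kinds lie among the zinc finger genes and also differed. Fv1, a retroviral restriction factor of endogenous retroviral origin with known strain alleles, had 1.56 and 2.21 CPM in K9M, against 5.55 and 5.69 CPM in WT (log2 -1.57 ± 0.22, adjusted p = 9.8e-04). Its transcript shares no 50-base stretch with another gene. Platr16, a non-coding transcript, had 45 counts over the K9M libraries and none in WT, so its level was at least 13.2-fold higher by the limit of 3 counts over the WT group. Tnfrsf8, which encodes the receptor CD30, averaged 5.52 ± 1.52 CPM in K9M and 2.83 ± 0.225 CPM in WT (adjusted p = 0.046).

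Beyond the cluster, the rest of the chromosome's end held 27 calls, 10 higher and 17 lower. Tas1r1, a subunit of the umami taste receptor, had 2.10 and 2.96 CPM in K9M, against 35.6 and 32.6 CPM in WT (log2 -3.74 ± 0.14, adjusted p = 7.5e-11). Mxra8, a cell adhesion protein and alphavirus receptor, had 33.3 and 32.0 CPM in K9M, against 93.9 and 89.9 CPM in WT (log2 -1.49 ± 0.07, adjusted p = 7.8e-10). Its antisense gene Mxra8os fell too (log2 -3.02 ± 0.36), and reads of both strands cannot be told apart where strand use in counting is not given. Kcnab2, an auxiliary subunit of voltage-gated potassium channels, went the other way, with 66.0 and 62.1 CPM in K9M against 22.6 and 20.5 CPM in WT (log2 1.58 ± 0.08, adjusted p = 2.4e-09). Tas1r1 and Mxra8 share no 50-base stretch with another gene, and Kcnab2 shares 1.33%.

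Further members of the chromosome's end changed less. Fbxo44, which encodes an F-box protein of a ubiquitin ligase, had 57.0 and 55.9 CPM in K9M, against 99.2 and 92.2 CPM in WT (log2 -0.76 ± 0.06). Ttc34 averaged 10.4 ± 2.24 CPM in K9M and 27.2 ± 0.996 CPM in WT (SD, n = 2 each). C1qtnf12, the secreted factor adipolin, averaged 4.56 ± 0.256 CPM in K9M and 11.4 ± 0.516 CPM in WT. Faap20, which joins the Fanconi anaemia core complex in DNA repair, averaged 1.96 ± 0.491 CPM in K9M and 5.37 ± 0.245 CPM in WT. All 4 fell with adjusted p of at most 0.0023. That both K9M libraries lay below both WT libraries was a condition for naming these genes.

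The other chromosomes with many calls also held windows with several calls. The first 50 tested genes of chromosome 5, from Cdk6 to 4930572O03Rik, held 8 calls, 3 higher and 5 lower. On chromosome 7, the 50 genes from 1110004F10Rik to Hs3st2 held 6, with 2 higher and 4 lower. Genes with strong changes lay on chromosomes 19 and 7. Cyp2c55, a cytochrome P450 on chromosome 19, had 12.5 and 13.0 CPM in K9M, against 0.935 and 0.583 CPM in WT (log2 4.10 ± 0.22, adjusted p = 5.3e-09). Pyroxd2, an oxidoreductase on the same chromosome, had 7.86 and 7.43 CPM in K9M, against 0.748 and 0.583 CPM in WT (log2 3.53 ± 0.24, adjusted p = 1.9e-07). In both genes the K9M libraries lay close together and well above WT, while the 2 K36M testes libraries stood apart from each other, at 6.95 and 0.797 CPM for Cyp2c55 and at 18.0 and 2.88 CPM for Pyroxd2. A1cf, a cofactor of APOBEC1 in RNA editing, rose (log2 1.19 ± 0.16) and Slit1, an axon guidance ligand, fell (log2 -1.41 ± 0.13), both also on chromosome 19. Fah, the last enzyme of tyrosine breakdown, on chromosome 7, had 7.86 and 7.58 CPM in K9M, against 2.12 and 3.21 CPM in WT (log2 1.51 ± 0.20).

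Ccdc7a, a coiled-coil gene on chromosome 8, had 111 and 112 CPM in K9M, against 45.2 and 48.7 CPM in WT (log2 1.24 ± 0.06, adjusted p = 4.4e-09). Cpne7, a copine, which binds membranes in response to calcium, had 7.38 and 7.06 CPM in K9M, against 1.06 and 1.60 CPM in WT (log2 2.40 ± 0.22). Igfbp3, which binds insulin-like growth factors, rose by a log2 of 1.24 ± 0.28 with an adjusted p of 0.048, and its call was lost without K9M mouse 1519 (adjusted p = 0.23), without WT.1477 (0.105) or without WT.1476 (0.18). Among abundant genes, Tubb6, a beta-tubulin, averaged 40.0 ± 1.73 CPM in K9M and 24.5 ± 1.27 CPM in WT. Erp29, an endoplasmic reticulum chaperone, averaged 56.1 ± 2.38 CPM in K9M and 34.6 ± 1.39 CPM in WT. Man2a2, a Golgi mannosidase of N-glycan processing, had 147 and 121 CPM in K9M, against 84.9 and 84.7 CPM in WT (log2 0.66 ± 0.08).

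Among genes named on other chromosomes, Abca6, an ABC transporter on chromosome 11, fell, with 4.54 and 4.47 CPM in K9M against 22.1 and 21.2 CPM in WT (log2 -2.26 ± 0.12, adjusted p = 6.1e-09). Tmc7, a transmembrane channel-like gene on chromosome 7, had 178 and 175 CPM in K9M, against 278 and 256 CPM in WT (log2 -0.60 ± 0.06). Aaas, a nuclear pore protein, averaged 26.9 ± 0.371 CPM in K9M and 38.4 ± 1.81 CPM in WT. Kremen1, a co-receptor of the Wnt inhibitor Dickkopf, fell by 0.51 on the log2 scale and was not called without WT.1477 (adjusted p = 0.068). Fat3, an atypical cadherin, fell by 0.49 and was not called without WT.1476 (0.079) or K9M mouse 1519 (0.075).

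In 3 families a gene and its copies were called in opposite directions. Eno1b, a copy of the glycolytic enzyme gene Eno1, on chromosome 18, had 31.9 and 30.3 CPM in K9M, against 7.17 and 6.22 CPM in WT (log2 2.22 ± 0.11, adjusted p = 1.8e-09). Eno1, at the end of chromosome 4, was itself called lower, with 169 and 147 CPM in K9M against 195 and 199 CPM in WT, and the sum of both was 201 and 177 CPM in K9M against 203 and 205 CPM in WT. Eno1b shares 85.2% of its 50-base stretches with another gene, so counting may not separate its reads from those of Eno1.

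Rps15a, a protein of the small ribosomal subunit, had 75.7 and 69.9 CPM in K9M, against 89.3 and 104 CPM in WT (log2 -0.42 ± 0.08, adjusted p = 0.014), a call lost without WT.1477 (0.22), K9M mouse 1516 (0.058) or K9M mouse 1519 (0.13). Its pseudogene Rps15a-ps8 had 77 counts over the K9M libraries and none in WT, at least 22.5-fold higher by the limit of 3 counts over the WT group. The pseudogene Rps15a-ps6 rose too, with 1.47 and 1.65 CPM in K9M against 0.436 and 0.340 CPM in WT. Rps15a-ps7 rose likewise, with 2.30 and 2.26 CPM in K9M against 0.748 and 0.535 CPM in WT. The summed level of the family was 81.6 and 75.4 CPM in K9M, against 90.5 and 105 CPM in WT, so the copies account for a small share of it.

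Rplp0, a protein of the ribosomal stalk, had 479 and 442 CPM in K9M, against 317 and 340 CPM in WT (log2 0.48 ± 0.06, adjusted p = 9.6e-05). The pseudogene Rplp0-ps1 fell and had 3 counts over the K9M libraries and 61 over the WT libraries, a ratio of 0.0432 with an exact 95% counting interval from 0.0087 to 0.132. The processed pseudogene Gm8730, named after its values were seen, had 1.71 and 0.753 CPM in K9M, against 29.5 and 30.1 CPM in WT (log2 -4.60 ± 0.20). K36M testes were like K9M in these genes: scaled over 6 libraries, they had 442 and 463 CPM of Rplp0 and 0.839 and 1.47 CPM of Gm8730. Rplp0 shares 33.1% and Gm8730 73.7% of 50-base stretches with other genes.

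**Figure D4:**
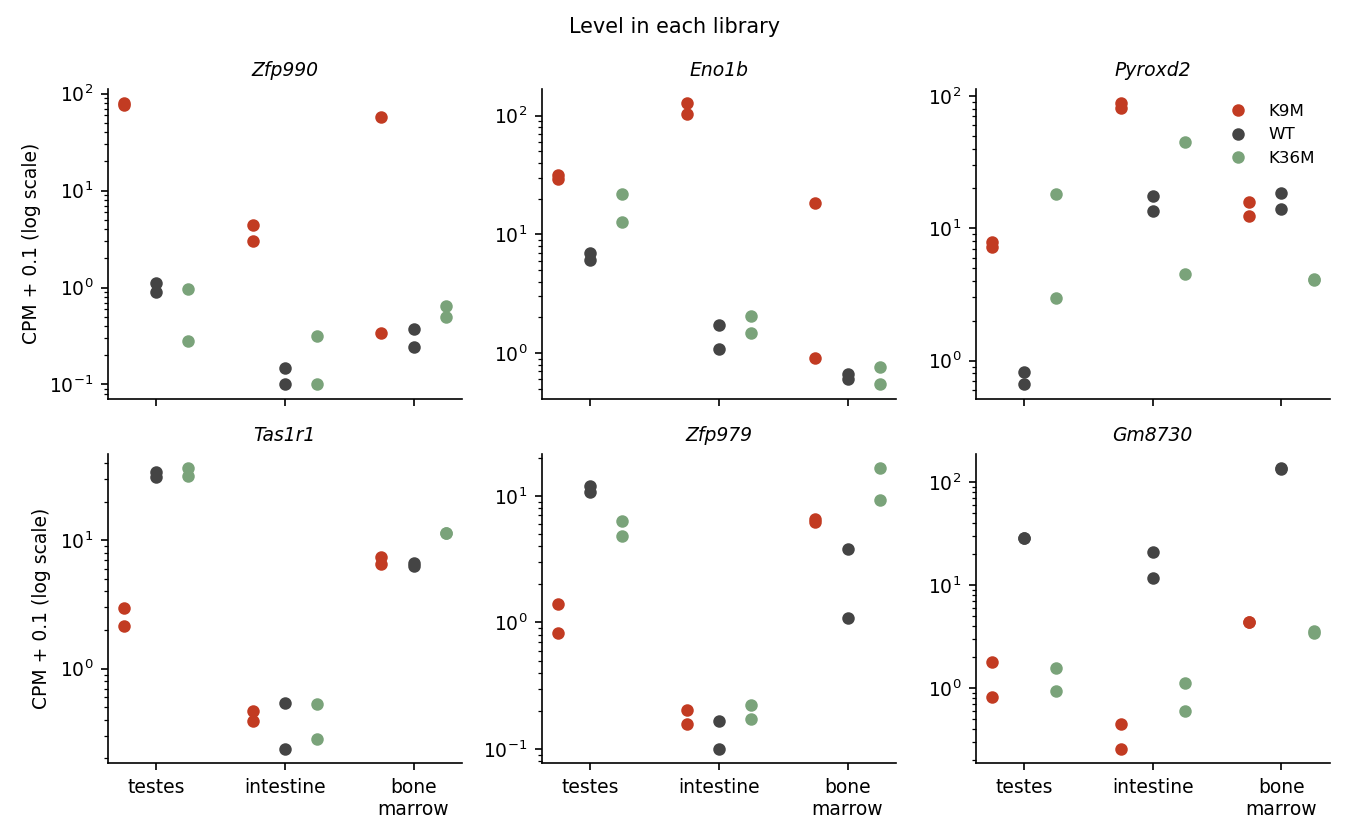
CPM plus 0.1 on a log scale in each of the 18 libraries for 6 genes, scaled within each tissue, with K9M in red, WT in dark grey and K36M in green, and 2 libraries per group. Zfp990 and Eno1b are high in both K9M libraries of testes and intestine and in 1 of the 2 of bone marrow, and Gm8730 is high in the WT libraries of every tissue.

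No germ cell list held a called gene. Among markers of spermatogonia, of late spermatocytes, of the acrosome of round spermatids and of elongating spermatids, and among genes of the synaptonemal complex, meiotic recombination and the piRNA pathway, 0 of 192 distinct genes tested were called by edgeR at the adjusted threshold, beside 1.13% of all genes, so that a count of 0 is near the level of all genes. The 8 lists had median log2 fold changes from -0.045 to 0.071, beside 0.0034 over all genes. Without adjustment, 13 of these genes were higher (6.77%) and 12 lower (6.25%) at p under 0.05, beside 5.64% and 5.61% of all genes. Stag3, a meiotic cohesin, averaged 595 CPM in K9M and 596 CPM in WT, and Ldhc, the germ cell lactate dehydrogenase, averaged 3355 CPM in K9M and 3319 CPM in WT. Tex15, needed for meiotic recombination and piRNA silencing, averaged 218 CPM in K9M and 255 CPM in WT (adjusted p = 0.11).

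The acrosome list leaned lower without a call, with 6 of 29 members above 0 on the log2 scale. At p under 0.05 before adjustment, 6 members were lower (20.7%, beside 5.61% of all genes) and 1 was higher (3.45%, beside 5.64%). Its summed level was 7993 and 7822 CPM in K9M, against 8121 and 8073 CPM in WT, with no overlap between groups. For comparison, both K9M libraries lay below both WT libraries for 21% of all genes tested and above them for 21.2%. Elongating spermatid genes summed to 32005 and 29796 CPM in K9M, against 30370 and 30429 CPM in WT, and these groups overlapped.

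Sertoli cell genes, by contrast, were mostly a little higher in K9M. Of 31 tested markers of these somatic nurse cells, 28 had a log2 fold change above 0 and the median was 0.22, beside 0.0034 over all genes. Members called higher were 2 (6.45%, beside 0.511% of all genes) and called lower 0 (beside 0.623%). Before adjustment 15 were higher (48.4%, beside 5.64% of all genes) and 0 lower (beside 5.61%) at p under 0.05. The summed level was 1994 and 2221 CPM in K9M, against 1795 and 1845 CPM in WT. In bulk tissue, more cells of a type and more RNA per cell cannot be told apart.

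Clu, the secreted chaperone clusterin, had 799 and 846 CPM in K9M, against 672 and 693 CPM in WT (log2 0.27 ± 0.05, adjusted p = 0.012). Espn, which bundles actin at Sertoli cell junctions and lies at the end of chromosome 4, had 106 and 108 CPM in K9M, against 85.8 and 83.4 CPM in WT (log2 0.34 ± 0.06, adjusted p = 0.0062). Neither was called without WT.1477 (adjusted p of 0.17 for Clu and 0.14 for Espn), and Clu also not without WT.1476 (0.37). Members below the threshold included Vim, an intermediate filament gene, with 58.4 ± 2.25 CPM in K9M and 47.9 ± 0.387 CPM in WT (adjusted p = 0.053), and Aard, with 94.3 ± 2.87 CPM in K9M and 79.8 ± 2.22 CPM in WT (0.081). Sox9, the transcription factor that sets Sertoli cell fate, averaged 19.3 CPM in K9M and 18.9 CPM in WT, and Wt1 averaged 51.0 CPM in K9M and 45.2 CPM in WT. The list's median stayed between 0.18 and 0.27 when any 1 library was left out, and its members higher at an unadjusted p numbered from 8 to 20.

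Among the other somatic cells, matrix genes had 1 rise among 19 and macrophage genes 1 fall among 20, beside 0.511% and 0.623% of all genes. Col4a1, a basement membrane collagen, had 20.3 and 19.6 CPM in K9M, against 15.5 and 13.7 CPM in WT (log2 0.46 ± 0.10, adjusted p = 0.038), and lost its call without any of 3 libraries, WT.1477 (0.37), K9M 1516 (0.10) or K9M 1519 (0.064). The median over the 19 tested matrix genes was 0.17 on the log2 scale, with 5 higher (26.3%, beside 5.64% of all genes) and 0 lower before adjustment (p under 0.05). H2-Aa, an MHC class II chain, had 1.91 and 2.82 CPM in K9M, against 6.11 and 4.42 CPM in WT (log2 -1.14 ± 0.24, adjusted p = 0.027), and was not called without WT.1476 (0.21) or K9M 1516 (0.14). The other MHC class II pathway genes of the list, Cd74 (-0.89, adjusted p = 0.13), H2-Eb1 (-0.51, adjusted p = 0.54) and H2-Ab1, were not called. The 20 macrophage genes summed to 426 and 446 CPM in K9M, against 372 and 420 CPM in WT.

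Leydig cell, smooth muscle and endothelial lists had 0 called members of 21, 13 and 14, which at 1.13% of all genes is near the level of all genes, with median log2 fold changes of 0.075, 0.095 and -0.012. At an unadjusted p under 0.05, 3 Leydig (14.3%) and 3 smooth muscle members (23.1%) were higher and none lower, and 1 endothelial member was lower (7.14%), beside 5.64% higher and 5.61% lower over all genes. The Leydig groups overlapped, with a summed level of 889 and 1446 CPM in K9M, against 1279 and 1143 CPM in WT. Mylk, the myosin light chain kinase of smooth muscle, averaged 76.3 CPM in K9M and 63.3 CPM in WT (adjusted p = 0.058). Red blood cell genes summed to 20.95 and 19.3 CPM in K9M, against 23.4 and 22.2 CPM in WT, with no overlap. For comparison, both K9M libraries lay below both WT libraries for 21% of all genes tested. Of 8 matched genes, 0 were at 0 in all libraries and 4 were tested. Among these 4, 0 were called and 1 was lower at an unadjusted p under 0.05. Hbb-bs, a beta-globin, had 1.76 and 2.64 CPM in K9M against 4.30 and 3.79 CPM in WT (log2 -0.87 ± 0.24, adjusted p = 0.11). The part of blood in any result was not tested. Intestinal epithelium genes summed to 23.2 and 24.0 CPM in K9M, against 21.9 and 24.1 CPM in WT. Epididymis genes summed to 195 and 219 CPM in K9M, against 195 and 205 CPM in WT, nearly all from Cst8, and 3 of 17 were at 0 in all 4 libraries.

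**Figure D5:**
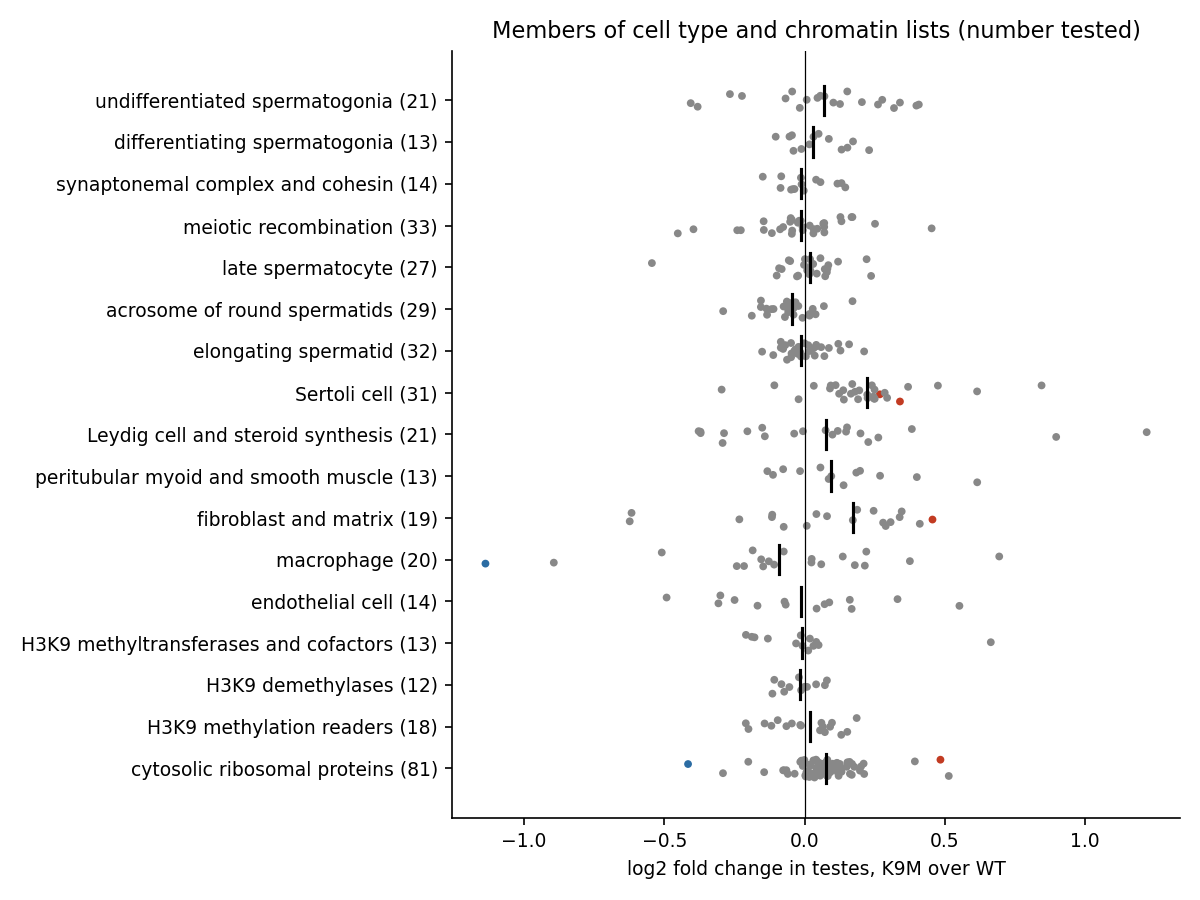
Log2 fold change of K9M over WT testes (horizontal) for each tested member of 17 lists, 1 row per list with its number tested, with called members in red (higher) or blue (lower), the others in grey, and a black bar at the median. Germ cell lists centre near 0, and the Sertoli cell list centres at 0.22.

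Genes of the H3K9 methylation machinery were near the level of all genes in their share of calls. None of 13 tested H3K9 methyltransferases and cofactors, 12 demethylases and 18 readers passed the threshold, with medians of -0.0072, -0.016 and 0.021. At an unadjusted p under 0.05, 2 methyltransferase genes (15.4%) and 2 readers (11.1%) were lower and 1 reader (5.56%) was higher. All genes gave 5.61% lower and 5.64% higher. With 1.13% of all genes called, lists of this size need hold no call. Trim28, the co-repressor that zinc finger proteins recruit, averaged 466 CPM in K9M and 450 CPM in WT, and the methyltransferase gene Ehmt2 averaged 307 CPM in K9M and 300 CPM in WT. Fam208b averaged 478 CPM in K9M and 549 CPM in WT (adjusted p = 0.11). The largest fold change of the methyltransferase list, 0.66 for Mecom, rested on less than 1 CPM in every library. DNA methylation enzymes also had 0 calls among 10, with 1 member higher (10%) at an unadjusted p under 0.05 and a median of 0.090. All 10 had a log2 fold change above 0, from 0.0022 to 0.60.

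Among gene families in clusters, the calls lay in the zinc finger genes, apart from 1 in the Hox list. Numbered zinc finger genes from Zfp600 to Zfp999 had 6 rises and 6 falls among 144 tested (8.33% called, beside 1.13% of all genes), with a median of -0.031, and all 12 lie in the window at the end of chromosome 4. Olfactory receptors had 0 calls among 48 tested of 853, vomeronasal receptors 0 among 25 tested of 191, and clustered protocadherins 0 among 17. At p under 0.05 before adjustment, 2 olfactory receptors were higher (4.17%) and 6 lower (12.5%). At the same p, 2 vomeronasal receptors were higher (8%) and 4 lower (16%), and protocadherins had 0 and 0. All genes gave 5.64% higher and 5.61% lower. Histone H3 genes (0 of 5), testis histone variants (0 of 15), imprinted genes (0 of 25), the Rhox cluster (0 of 3), the kallikrein cluster (0 of 12) and genes of the 2-cell embryo (0 of 3) had no call, and 6 of the last list were at 0 in all 4 libraries. Before adjustment, 1 testis variant (6.67%), 1 imprinted gene (4%), 1 kallikrein (8.33%) and 1 gene of the 2-cell embryo (33.3%) were higher at p under 0.05. Lower at that p were 1 variant (6.67%), 2 imprinted genes (8%) and 4 kallikreins (33.3%), beside 5.61% of all genes. The Hox list had its median at -0.33 on the log2 scale, with 4 of 18 members above 0 and, before adjustment, 0 higher and 4 lower at p under 0.05 (22.2%, beside 5.61% of all genes). Among them 1 was called lower, Hoxd11, with 5 counts over the K9M libraries and 27 over WT (log2 -2.56 ± 0.59, adjusted p = 0.046), a call lost when any 1 library was left out (0.13 to 0.30).

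Lists of stress, signalling and growth genes held no call, which lists of 20 to 36 genes need not at 1.13% of all genes. Interferon-stimulated genes (0 of 26, median -0.18), p53 targets (0 of 23), heat shock and unfolded protein genes (0 of 21), cholesterol synthesis (0 of 23, median -0.10), DNA replication (0 of 33) and complex I (0 of 36) stayed below the threshold. Before adjustment, the members higher at p under 0.05 were 2 p53 targets (8.70%), 2 stress genes (9.52%), 2 replication genes (6.06%) and 3 complex I subunits (8.33%). Over all genes 5.64% were higher. Those lower were 1 interferon-stimulated gene (3.85%), 3 p53 targets (13.0%), 1 stress gene (4.76%) and 2 cholesterol genes (8.70%), beside 5.61% of all genes. Immediate early genes had 0 calls among 20, with 1 higher and 6 lower (30%, beside 5.61% of all genes) at p under 0.05 before adjustment and a median of -0.16. Cytosolic ribosomal proteins had 1 rise and 1 fall, the Rplp0 and Rps15a changes above, among 81. Of these 81, 67 had a log2 fold change above 0, before adjustment 14 were higher (17.3%, beside 5.64% of all genes) and 2 lower at p under 0.05, and the median was 0.076.

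The intestine of the same 4 mice had 202 calls among 13260 genes (1.52%). Of 114 testes calls also tested there, 11 were called in the same direction (9.65% of the testes calls, 7.1% of the 155 intestine calls tested in both) and 2 in the opposite one. Zfp990 had 2.92 and 4.26 CPM in K9M intestine, against 0.0487 and 0 CPM in WT intestine (log2 6.67, adjusted p = 0.013). Pyroxd2 had 88.2 and 80.7 CPM in K9M intestine, against 17.5 and 13.4 CPM in WT intestine (log2 2.43, adjusted p = 0.0029). Eno1b had 128 and 103 CPM in K9M intestine, against 0.974 and 1.63 CPM in WT intestine (log2 6.49, adjusted p = 8.4e-04). The tissues share their mice, so these are further measurements of the same animals. At the end of chromosome 4, 10 of 128 genes were called in intestine, and 4 of these were testes calls, 3 in the same direction.

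Bone marrow progenitors came from other K9M and WT mice and had 110 calls among 14026 genes (0.784%). Of 132 testes calls tested there, 8 were called in the same direction (6.06% of the testes calls, 8.7% of the 92 bone marrow calls tested in both) and 0 in the opposite one. At the end of chromosome 4, 1 of 134 genes was called in marrow, and it was not called in testes. Zfp990 had 57.6 CPM in K9M mouse 1362 but 0.240 CPM in K9M mouse 1363, against 0.141 and 0.276 CPM in WT, and Eno1b likewise had 18.2 CPM in mouse 1362 and 0.816 CPM in mouse 1363, against 0.566 and 0.505 CPM in WT. Both genes were high in mouse 1362 and near the WT level in mouse 1363. Tas1r1 did not show its testes difference there, with 7.35 and 6.43 CPM in K9M marrow against 6.51 and 6.20 CPM in WT marrow (log2 0.12, adjusted p = 0.83). Fah (log2 2.41, adjusted p = 0.018) and H2-Aa (log2 -3.17, adjusted p = 0.0018) were called in marrow in the same direction as in testes.

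Genes called the same way in all 3 tissues numbered 3, and all fell: the pseudogenes Gm8730 and Gm14165 and an ID without a symbol. Gm14165 had 0.244 and 0.565 CPM in K9M testes, against 6.92 and 6.32 CPM in WT testes. In K9M marrow it had 0.977 and 0.240 CPM, against 26.5 and 27.2 CPM in WT marrow. The K36M testes libraries had 0.240 and 0 CPM of it, so WT stood apart from both mutants.

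Whether an effect in testes differed from that in intestine was tested as an interaction over the 8 libraries, which called 101 of 19793 genes (0.51%). With the mouse as a block, 6 were called. Leaving out any 1 testes library left 10 to 13 calls, and leaving out intestine libraries gave 39 to 2226. The intestine library of WT.1476 carried 70.0 CPM of the spermatid gene Prm2, against 2.17 CPM in the other WT intestine and 2.25 and 3.28 CPM in the K9M intestines, and its part in these counts was not tested. Eno1b rose less in testes than in intestine (difference in log2 fold change -4.28 ± 0.29, adjusted p = 0.0014), with an adjusted p of 0.032 with the block. For Zfp990 the difference was -0.33 ± 0.79 (adjusted p = 0.95), which does not show that the effects were equal.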

How the data were processed

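The data are RNA-seq read counts from testes, with intestine and bone marrow set beside them. The deposited files hold unnormalized counts for 37620 gene IDs. The submitters' processing notes name STAR, HTSeq and the mm9 build. Their versions, and whether counting used strand, are not given in the sources used here. Further rows that name no gene were left out of library sizes and tests. In testes, 23.7% to 26.0% of all entries lay in no feature, 15.3% to 16.2% had no unique alignment, and 2.21% to 2.39% were ambiguous.

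Symbols, gene types, chromosomes and gene order came by gene ID from GENCODE M21 (GRCm38), which named 32897 IDs. It is another build than that of the counts, so its coordinates were used only to order genes along each chromosome. The windows of consecutive genes and the end of chromosome 4 rest on that order. Whether the order is the same in the build of the counts was not tested. Promoter sequences are RefSeq's own.

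The 2 K9M and 2 WT testes libraries were fitted alone in edgeR 4.0.16 (R 4.3.3), with filterByExpr, TMM factors, a robust quasi-likelihood fit with 2 residual degrees of freedom, and Benjamini-Hochberg adjusted p under 0.05. CPM are scaled by TMM over these 4 libraries, or over all libraries of a tissue where other groups are given. SE are log2 fold changes divided by the root of F. The edgeR fit of K9M against WT was tried on simulated counts that had the same spread for every gene. The other steps were not tested in this way. DESeq2 1.42.0 and limma 3.58.1 were alternatives. Shared stretches are 50-base windows of GENCODE M21 transcripts found in another gene, and promoters were aligned globally with Biopython 1.88. Counting intervals and limits cover counting error only.

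Each library is 1 mouse. Intestine and testes libraries are paired by the mouse number in their labels, and deviations within a genotype correlated between the tissues at 0.071 in K9M and 0.031 in WT. The members and lists were chosen with earlier results of these data known. Named genes are the 12 largest rises and falls with a call, a mean log2 CPM of at least 1, no overlap between groups and a symbol that is no predicted model, the 6 smallest adjusted p, the 6 largest each way at a mean log2 CPM of at least 5, up to 3 called members of a list or 2 abundant members of a list without a call, and H3f3a and H3f3b. The other genes of the Pramef8 to Fv1 window, Mxra8os, Eno1, members below the threshold, the copies and the genes called in 3 tissues were named after their values were seen. One result of the comparison with intestine is not reported here.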

Additional observations from a re-analysis of the deposited data

Results flagged for a closer look

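The K9M effect of 5 named genes differed between testes and intestine of the same mice in the test of that difference, given as the log2 fold change in testes minus that in intestine. Eno1b differed by -4.28 (adjusted p = 0.0014), Fbxo44 by 3.23 (0.0061) and Zfp984 by 3.56 (0.0065). Kcnab2 differed by 1.89 (0.024) and C1qtnf12 by 1.12 (0.046). Fbxo44 had 57.0 and 55.9 CPM in K9M testes, against 99.2 and 92.2 CPM in WT testes, and 0.731 and 0.288 CPM in K9M intestine, against 8.43 and 8.01 CPM in WT intestine, so it fell in both and by more in intestine. Zfp984 rose in testes (log2 1.29) and fell in intestine (log2 -2.26, adjusted p = 0.034), where it had 1.25 and 1.90 CPM in K9M, against 7.01 and 8.01 CPM in WT. With the mouse as a block, Eno1b kept an adjusted p under 0.05 (0.032), and Fbxo44 and Zfp984 were at 0.092, C1qtnf12 at 0.27 and Kcnab2 at 0.21.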

How the results depend on the processing

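Of the 39 named called genes, none changed direction under any alternative. Most were named on the condition that the groups did not overlap. Leaving out 1 library or rescaling could therefore hardly reverse them, and the kept direction is no separate support. DESeq2's size factors in edgeR, no filter and limma-voom kept 39, 39 and 38 of the calls, DESeq2 34 and the fit with the K36M libraries 8. In testes, calls numbered 566 with no filter (276 higher, 290 lower), 123 with DESeq2 (55, 68), 133 without robust estimation (62, 71), 106 at an adjusted p under 0.01 (50, 56), 73 at 2-fold or more (30, 43) and 13 over all 6 testes libraries (5, 8). Leaving out 1 library gave 170 to 361 calls, 70 to 163 higher and 100 to 198 lower. For the difference from intestine, 101 calls became 49 with library size alone, 316 with no filter, 896 with DESeq2, 24 at an adjusted p under 0.01, 6 with the replicate block and 10 to 2226 without 1 library. In intestine, 202 became 122 with library size alone, 1594 with no filter, 667 with DESeq2, 131 without robust estimation, 32 at an adjusted p under 0.01 and 19 to 602 without 1 library. In bone marrow, 110 became 492 with no filter, 329 with DESeq2, 23 at an adjusted p under 0.01 and 14 to 938 without 1 library. The cause was not tested beyond what each setting changes by construction. With 1 library left out, the lone library is assumed to vary like the other group. The counts on chromosome 4 were added after seeing the data: 42 to 61 of its genes were called without 1 library, and 44 with DESeq2. They made up 26.3% of the calls as reported, 16.9% without K9M mouse 1519, 17.3% with no filter, 19.5% without K9M mouse 1516 and 24.7% to 46.2% under the other settings. Zfp600 and 9 other named genes lost their call without 1 library, as given beside them.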

Other observations

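Rps13-ps1, a processed pseudogene of a ribosomal protein gene, was high in the K9M libraries of every tissue and not called in testes. Scaled within each tissue, it had 25.6 and 12.9 CPM in K9M testes, against 0.0600 and 0.140 CPM in WT testes, and its adjusted p was 0.20. It had 10.4 and 9.05 CPM in K9M intestine, against 0.0487 and 0 CPM in WT intestine, and 54.1 and 53.2 CPM in K9M bone marrow, against 0.283 and 0.322 CPM in WT. The K36M testes libraries had 0.120 and 0.0613 CPM. Rps15a-ps8 had 3.68 and 4.42 CPM in K9M bone marrow and was listed at 0 in WT bone marrow.

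Hapln1, which links hyaluronan to proteoglycans in the extracellular matrix, lies on chromosome 13 and had 0.391 and 0.141 CPM in K9M testes, against 3.93 and 3.50 CPM in WT testes (log2 -3.78 ± 0.38). The K36M testes libraries had 0.120 and 0.0613 CPM, below WT as well. The processed pseudogene Gm13453 had 6.30 and 5.32 CPM in K9M testes, against 0.249 and 0.292 CPM in WT testes (log2 4.38 ± 0.31). Both were named after their values were seen.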
